A study of Mus musculus with 23 samples.

Results

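Matrix metalloproteinases and their tissue inhibitors were followed across the livers and primary tumors of mice with orthotopic colorectal tumors. The set is 10 genes chosen by symbol out of 48895 in the table: the 7 metalloproteinase genes *Mmp2*, *Mmp3*, *Mmp8*, *Mmp9*, *Mmp12*, *Mmp13*, and *Mmp14*, and the 3 inhibitor genes *Timp1*, *Timp2*, and *Timp3*. Male BALB/c mice aged 4 to 6 weeks received CT26 cells, an established mouse colon carcinoma line, in the cecal serosa, whereas sham-operated mice received serum-free RPMI medium there. The tissues collected 3 weeks later were the primary tumor and the pre-metastatic liver of 9 tumor-bearing mice and the control liver of 5 sham-operated mice. A pre-metastatic liver is here the liver of a tumor-bearing mouse in which histology showed no metastasis, and every tumor comes from the same cell line. Mice are named as in the labels, C for sham-operated and M for tumor-bearing. Poly(A) RNA of whole tissue was sequenced, so fewer cells of a type and less RNA per cell cannot be told apart.

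Matrix metalloproteinases are zinc enzymes that cut collagens, elastin, basement membrane and other proteins outside the cell, and they are made as inactive precursors. *Mmp2* and *Mmp9* encode the gelatinases, *Mmp8* and *Mmp13* collagenases, *Mmp3* stromelysin, *Mmp12* the macrophage elastase, and *Mmp14* a membrane-anchored enzyme that activates pro-Mmp2. The Timp proteins bind the active enzymes and block them, Timp2 also takes part in the activation of pro-Mmp2 at the cell surface, and Timp3 is held in the matrix. In liver these genes are known for the turnover of scar matrix, and stored Mmp8 and Mmp9 are known from neutrophil granules. RNA levels do not show how much enzyme is active.

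The total count was 44587556 to 79773163 per library over all 23. Expression is given as RPKM, the read count divided by gene length and by the library's total, which allows genes of unequal length to be compared. The defining hepatocyte genes summed to between 37456 and 78642 RPKM in livers and between 7.86 and 310 RPKM in tumors. Markers of intestinal epithelium were low in the tumors, with *Epcam*, an epithelial adhesion gene, at 0.0168 to 1.88 RPKM and *Cdx2*, an intestinal transcription factor, at 0.0178 to 0.709 RPKM. By the sign of an index of 6 genes of the circadian clock, 4 control and 5 pre-metastatic livers were divided from the other 5 (C7, M1, M2, M10, and M12). The index ran from -2.35 (M4) to -0.102 (M7) in the former and from 0.981 (C7) to 2.92 (M10) in the latter. The former are called early phase and the latter late phase below, and since C7 is the only late control, comparisons within a phase were possible only in the early set.

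Apart from 4 neighbors, the genes lie on separate chromosomes of the mm10 build. *Mmp13*, *Mmp12*, *Mmp3*, and *Mmp8* belong to a run of 10 Mmp genes on chromosome 9, from base 7272514 to base 7699585, in which *Mmp1b*, *Mmp1a*, *Mmp10*, *Mmp27*, *Mmp20*, and *Mmp7* are the others. *Mmp2* is on chromosome 8 (92827291 to 92853421, plus strand), *Mmp9* on chromosome 2 (164940744 to 164955850, plus strand), and *Mmp14* on chromosome 14 (54431598 to 54442456, plus strand). *Timp1* is on chromosome X (20870166 to 20874737, plus strand), *Timp2* on chromosome 11 (118301061 to 118355411, minus strand), and *Timp3* on chromosome 10 (86300412 to 86349505, plus strand). The exons of *Timp3* share 1733 bases with *Syn3* on the opposite strand and those of *Mmp12* share 157 with *Mmp1b*, and reads from shared bases cannot be told apart where strand is not counted.

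Promoters of the 4 neighbors are shown because these genes were low in control liver and high in tumors, and that of *Timp1* because it had the largest fold change. The sequences are the 130 bases before the annotated start, 5′ to 3′ on the gene's strand, from RefSeq for GRCm38.p6. Capitals mark the AP-1 site TGAGTCA, or TGACTCA where it reads so on the other strand, the motif bound by Fos and Jun proteins.
Mmp13 (chr9:7272384-7272513): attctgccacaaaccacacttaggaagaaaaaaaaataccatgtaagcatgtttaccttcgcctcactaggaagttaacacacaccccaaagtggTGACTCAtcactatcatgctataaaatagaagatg
Mmp3 (chr9:7445692-7445821): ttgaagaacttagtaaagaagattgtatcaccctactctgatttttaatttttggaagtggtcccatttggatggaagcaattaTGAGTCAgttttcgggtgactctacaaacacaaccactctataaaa
Mmp12 (chr9:7344267-7344396): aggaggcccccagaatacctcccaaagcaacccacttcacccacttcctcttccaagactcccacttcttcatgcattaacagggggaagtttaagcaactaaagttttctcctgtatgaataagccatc
Mmp8 (chr9:7558299-7558428): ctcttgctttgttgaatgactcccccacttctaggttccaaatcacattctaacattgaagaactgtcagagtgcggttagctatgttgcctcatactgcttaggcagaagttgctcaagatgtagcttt
Timp1 (chrX:20870036-20870165): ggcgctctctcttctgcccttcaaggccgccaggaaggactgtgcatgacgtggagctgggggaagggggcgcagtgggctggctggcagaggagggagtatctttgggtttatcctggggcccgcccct

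The site was found 35 bases before the start of *Mmp13* and 46 bases before that of *Mmp3*. Searched on both strands over the 300 bases around each start, AP-1 matched the promoters of 2 of the 8 genes that have one in the table (*Mmp2* and *Mmp9* were not analysed here) and 5.20% of all 32851 promoters. Among the neighbors outside the set, it also stood before the starts of *Mmp1b* (93 bases), *Mmp1a* (73 bases), *Mmp10* (63 bases), and *Mmp7* (63 bases). The motif TTCCNGGAA, bound by STAT factors, was in 1.15% of all promoters and in none of the 8. These matches describe letters in a window and not binding.

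In control liver, 1 gene carried most of the set's RNA. *Mmp14* stood at 31.7 ± 6.08 RPKM (SD, n = 5) and took 69.2% to 82.6% of the summed RPKM of the 10 genes. *Timp2* followed at 4.81 ± 0.917 RPKM, *Timp3* at 3.72 ± 0.876 RPKM, and *Mmp2* at 0.977 ± 0.116 RPKM, and each of these neighbors in the order differed in the same direction in 5 of 5 livers. *Timp1* (0.201 ± 0.0964 RPKM) and *Mmp3* (0.133 ± 0.0775 RPKM) changed places between livers, since *Timp1* was the higher in 3 of 5. *Mmp9*, *Mmp12*, *Mmp13*, and *Mmp8* had means between 0.0466 and 0.0518 RPKM and rested on 1 to 17 counts per library, so their order was not detectable at this depth.

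**Figure D1:**
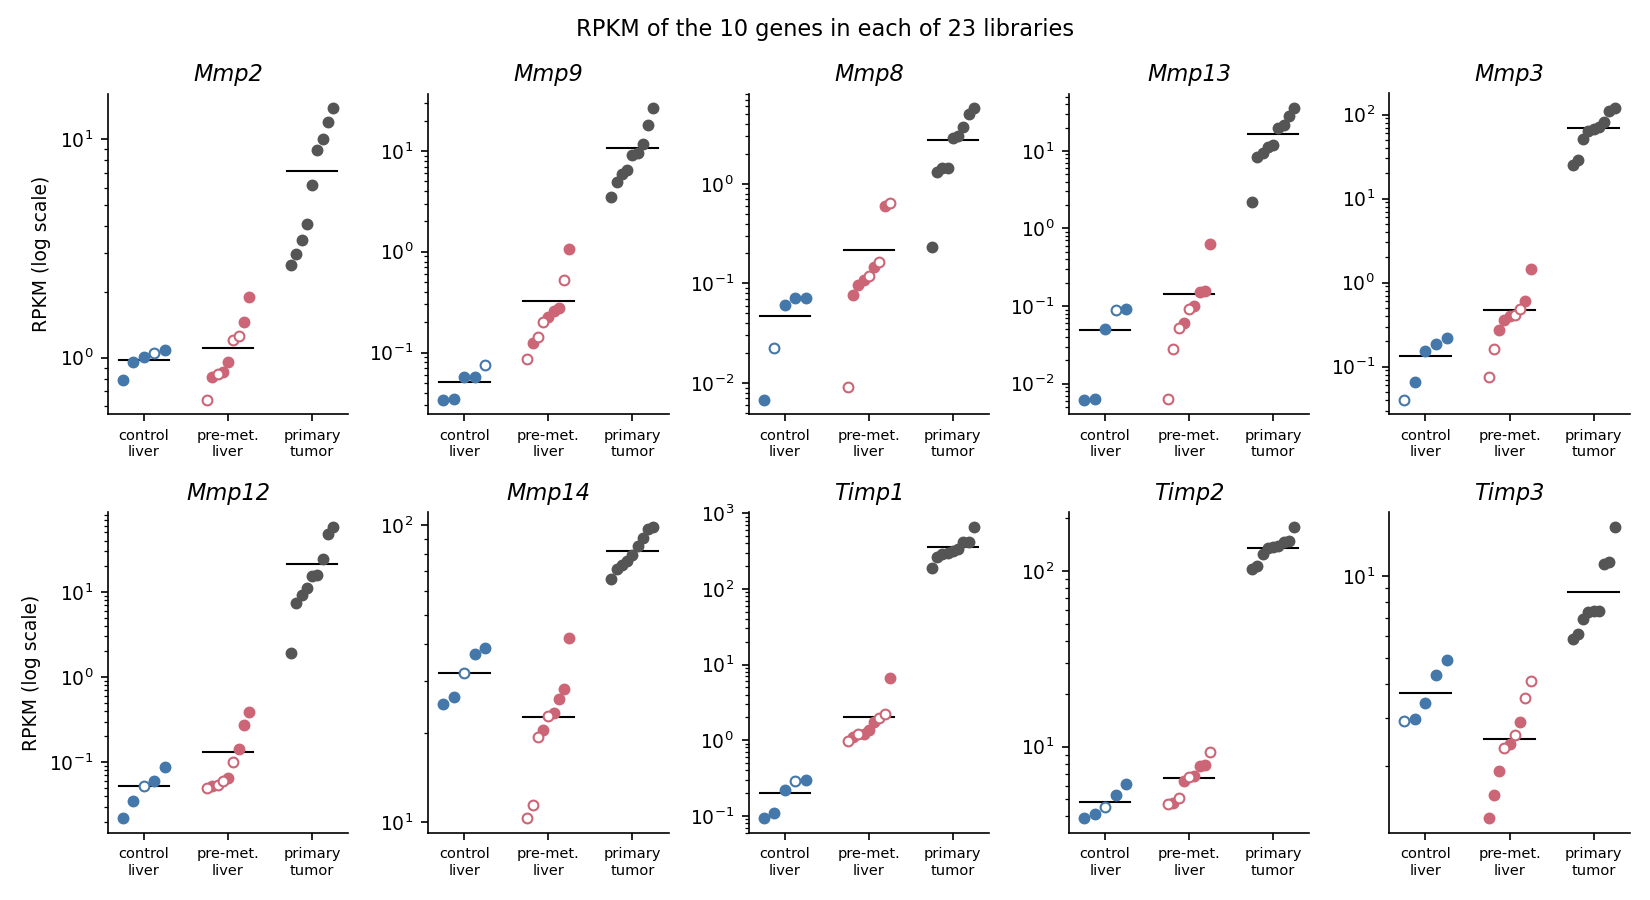
RPKM of each gene (log axis) in 5 control livers, 9 pre-metastatic livers, and 9 primary tumors, with 1 point per library, a line at the group mean, and open points for livers of the late clock phase. *Timp1* and *Mmp9* of the pre-metastatic livers lie above those of the control livers without overlap, and *Mmp8* is the gene whose tumors overlap the pre-metastatic livers.

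The comparison of pre-metastatic with control liver asked whether the set changed before metastasis. *Timp1* and *Mmp9* rose most, *Mmp8*, *Mmp3*, and *Timp2* also rose, and no member was called lower over all livers, although *Timp3* was called lower in the early phase alone and with the clock phase as a term. Thus 5 of the 10 members passed (edgeR's quasi-likelihood test, Benjamini-Hochberg adjusted p under 0.05), all higher, where 31% of the 16987 genes tested were called, 17.7% higher and 13.3% lower. The median log2 fold change of the members was 1.49, and that of all genes tested was 0.01. All 10 members passed the filter of 10 counts in 5 livers. For *Mmp9*, *Mmp12*, *Mmp3*, and *Timp1* only 3 control livers reached 10 counts, for *Mmp13* 2, and for *Mmp8* 1. With no filter 4 members were called, *Mmp8* no longer among them.

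*Timp1*, the inhibitor secreted in inflammation and fibrosis, was at 0.0930, 0.217, 0.300, 0.110, and 0.286 RPKM in control livers C1, C4, C5, C6, and C7. In pre-metastatic livers it ranged from 0.982 RPKM (M10) over a median of 1.38 to 6.58 RPKM (M6). The lowest pre-metastatic liver was above the highest control liver. The log2 fold change was 3.48 ± 0.58 (SE, adjusted p = 0.000521), an 11.2-fold rise, on 5 to 16 counts in the control and 48 to 330 in the pre-metastatic livers. Liver M6 stood apart, with the next liver at 2.21 RPKM. Without M6 the log2 fold change was 2.96 (adjusted p = 8.55e-05), and in the early phase alone it was 3.87 (adjusted p = 0.00444).

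*Mmp9*, the gelatinase of neutrophils and macrophages, was at 0.0341, 0.0568, 0.0343, 0.0576, and 0.0750 RPKM in C1, C4, C5, C6, and C7. In pre-metastatic livers its lowest, median, and highest values were 0.0858 RPKM (M2), 0.223 RPKM, and 1.07 RPKM (M6). Again no value overlapped, which held for 2 members in this comparison and for 4.85% of all genes tested in the direction of a rise. The gap was narrow, with 13 counts in M2 and 14 in C7, the highest control liver. The log2 fold change was 2.78 ± 0.63 (adjusted p = 0.0039). It was 2.22 without M6 (adjusted p = 0.00182) and 3.22 in the early phase (adjusted p = 0.00848).

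*Mmp8*, the collagenase stored in neutrophil granules, was at 0.0608, 0.0715, 0.00679, 0.0718, and 0.0223 RPKM in C1, C4, C5, C6, and C7, on at most 10 counts. In pre-metastatic livers it ranged from 0.00914 RPKM (M2, 1 count) over a median of 0.119 to 0.641 RPKM (M1). Livers M1 and M6 were far above the rest, M2 lay within the control range, and 8 of 9 pre-metastatic livers exceeded every control liver. The log2 fold change was 2.33 ± 0.82 (adjusted p = 0.0421). The call was lost without M1 (1.96, adjusted p = 0.0742), without M6 (1.93, adjusted p = 0.068), with any one control liver left out (2.05 to 2.53, adjusted p up to 0.0939), and in the early phase (2.08, adjusted p = 0.0845).

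*Mmp3*, stromelysin, which cuts many matrix proteins and other pro-Mmps, was at 0.221, 0.185, 0.0648, 0.152, and 0.0404 RPKM in C1, C4, C5, C6, and C7. In pre-metastatic livers it ranged from 0.0761 RPKM (M10) over a median of 0.404 to 1.46 RPKM (M6), with 7 of 9 above every control liver. The log2 fold change was 1.93 ± 0.64 (adjusted p = 0.0323). Without C5, C6, or C7 the adjusted p was 0.0588 to 0.0792, and by the exact Wilcoxon rank-sum test it was 0.0604.

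*Timp2*, which is expressed steadily in many tissues, rose the least of the members called. It was at 3.91, 6.14, 4.15, 5.31, and 4.51 RPKM in C1, C4, C5, C6, and C7, and at 4.70 RPKM (M10) to 9.34 RPKM (M1) in pre-metastatic livers with a median of 6.72 RPKM. The groups overlapped, with 6 of 9 above the highest control liver, and the log2 fold change was 0.54 ± 0.16 (adjusted p = 0.0201). Without C1 or C5 the adjusted p was 0.0547 and 0.0563, on library totals alone 0.053, and by the exact Wilcoxon rank-sum test 0.081.

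The other members did not pass the test between the livers. *Mmp13* had a log2 fold change of 1.56 ± 0.83 (adjusted p = 0.169) and rested on 1 to 93 counts, the highest in M5. *Mmp12* had 1.42 ± 0.57 (adjusted p = 0.0698) and was also highest in M5, at 0.387 RPKM against 0.0649 RPKM at the median. DESeq2 called it (adjusted p = 0.0363). *Mmp2* was at 0.785 to 1.08 RPKM in control and 0.641 to 1.89 RPKM in pre-metastatic livers, with a log2 fold change of 0.24 ± 0.19 (adjusted p = 0.371).

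*Mmp14* and *Timp3* had the negative differences of the set. *Mmp14* ranged from 24.9 to 38.5 RPKM in control liver and from 10.3 to 41.6 RPKM in pre-metastatic liver, where 6 of 9 livers were below and 1, M6, above every control liver (-0.38 ± 0.29, adjusted p = 0.334). The late-phase pre-metastatic livers held 10.3 to 22.8 RPKM and the early-phase ones 20.5 to 41.6 RPKM. *Timp3* was at 2.99, 4.32, 3.40, 4.93, and 2.94 RPKM in C1, C4, C5, C6, and C7, and ranged from 1.29 RPKM (M6) over 2.42 to 4.13 RPKM (M2) in pre-metastatic liver. Its log2 fold change was -0.49 ± 0.21 (adjusted p = 0.0893) over all livers. In the early phase *Timp3* was at 2.99 to 4.93 RPKM in 4 control and 1.29 to 2.91 RPKM in 5 pre-metastatic livers. The log2 fold change was -0.91 there (adjusted p = 0.00621). With the clock phase as a term it was -0.65 (adjusted p = 0.0287).

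**Figure D2:**
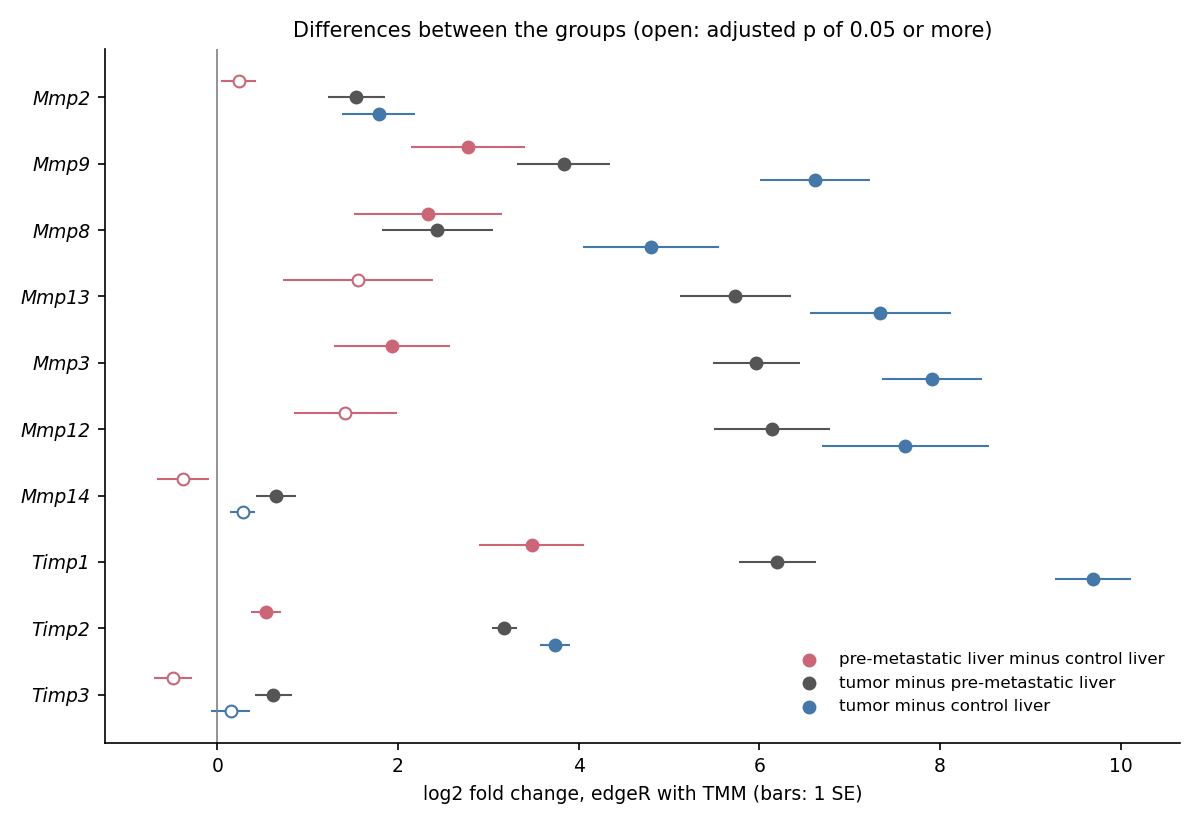
The log2 fold change of each gene in the 3 comparisons (edgeR with TMM normalization, bars of 1 SE), filled where the adjusted p was under 0.05. *Timp1* shows the largest difference in each comparison, while *Mmp14* and *Timp3* stay within 1 log2 unit of no difference.

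Neutrophil, granule precursor, and macrophage markers were also higher in pre-metastatic liver, and their part in the result was not tested. Of 9 neutrophil markers, 5 of the 8 tested rose and none fell. Their summed level was 6.56 to 22.5 RPKM in control and 7.52 to 142 RPKM in pre-metastatic livers, with *Ly6g*, a defining neutrophil marker, at no more than 7 counts in any control liver. *Ltf* (2.73), *S100a8* (2.32), *S100a9* (2.11), and *Csf3r* (1.98) had the largest log2 fold changes of those called. All 4 granule precursor markers rose, led by *Prtn3*, the proteinase 3 gene (5.99). Their sum went from 1.34 to 2.89 RPKM in control to 27.1 to 112 RPKM in pre-metastatic liver. In pre-metastatic liver that sum was mostly *Prtn3*, at 26.8 to 109 RPKM against 0.766 to 1.59 RPKM in control. The means of *Mpo*, *Elane*, and *Ctsg* were 1.42, 1.57, and 0.788 RPKM in pre-metastatic liver. In control liver they were 0.218, 0.424, and 0.115 RPKM. Of 6 macrophage markers 5 rose, with a sum of 43.3 to 90.9 RPKM in control and 79.3 to 244 RPKM in pre-metastatic liver.

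The livers highest in *Mmp8*, M1 and M6, also had the highest neutrophil sums, 142 and 66.6 RPKM. Liver M2, with the lowest *Mmp8* and *Mmp9* of its group, had the lowest neutrophil sum, 7.52 RPKM. The same 2 livers, M6 and M1, were the highest in *Mmp9* (1.07 and 0.528 RPKM) and in *Timp1* (6.58 and 2.21 RPKM). In M2, whose neutrophil sum lay within the control range, *Mmp9* (0.0858 RPKM) and *Timp1* (1.21 RPKM) were above every control liver and *Mmp8* was not. For *Mmp9* this rested on 13 counts in M2 against 14 in C7, the highest control liver (0.0750 RPKM). The granule precursor sum (27.1 RPKM, mostly *Prtn3*) and macrophage sum (120 RPKM) of M2 were above every control liver, and their part was not tested.

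**Figure D3:**
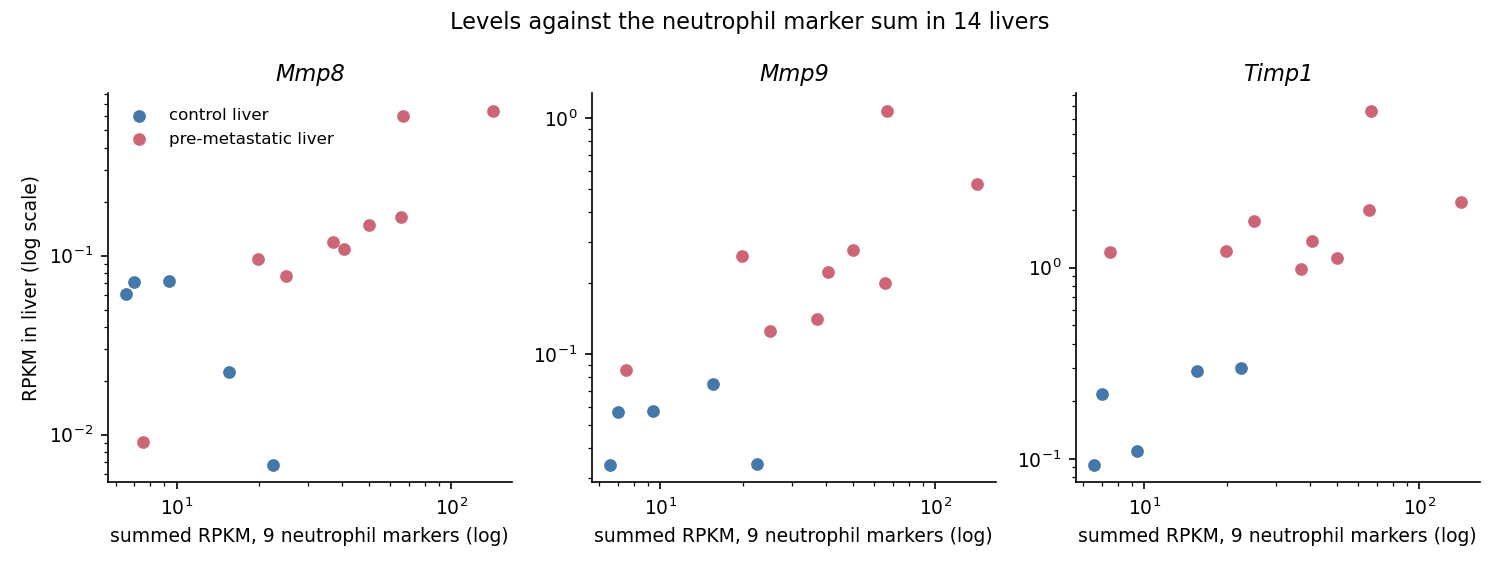
RPKM of *Mmp8*, *Mmp9*, and *Timp1* (log axis) against the summed RPKM of 9 neutrophil markers (log axis) in 5 control and 9 pre-metastatic livers, 1 point per liver. The pre-metastatic liver at a sum of 7.52 RPKM is M2, which lies within the control range in *Mmp8* (0.00914 RPKM) and above the control livers in *Mmp9* (0.0858 RPKM) and *Timp1* (1.21 RPKM), and M6 and M1 are the 2 highest livers in each panel.

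The lists of the other cell types had at most 1 call each. Of 8 stellate cell and fibroblast markers 1 rose, the collagen gene *Col1a1* (2.71), and none fell, with sums of 77.7 to 112 RPKM in control and 36.9 to 125 RPKM in pre-metastatic liver. Of 5 endothelial markers, *Stab2*, a sinusoidal scavenger receptor, rose (0.86), and of 6 hepatocyte markers, the fibrinogen gene *Fgb* (1.37) rose. Of 3 epithelial markers tested, *Vil1*, a brush border gene, rose (2.99, at most 7 counts in control livers). None of 4 visceral smooth muscle markers was called in either direction, and their sum was 3.66 to 8.94 RPKM in control and 2.51 to 16.7 RPKM in pre-metastatic liver.

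Genes of the tumor were followed in the liver through 15 genes that held at least 10 RPKM in each tumor and at most 3 counts in each control liver. Their median in the liver, as a percentage of the same mouse's tumor, was 0.0788% to 0.565% in 8 mice and 1.23% in M6. *Timp1* in the liver was 0.207% to 1.57% of that in the own tumor, highest in M6, and exceeded the median of the 15 genes in 9 of 9 mice and their upper quartile in 4 of 9. *Mmp9* was at 0.757% to 11.7% of the own tumor, above the median in 9 of 9 mice and above the upper quartile in 8 of 9. *Mmp8* was at 0.628% to 63.2% and above the upper quartile in 9 of 9, as were *Mmp2*, *Mmp14*, *Timp2*, and *Timp3*. *Mmp3* (0.15% to 1.41%) exceeded the median in 6 mice and the upper quartile in 3, and *Mmp13* and *Mmp12* exceeded the median in 7 and 6 mice. The 15 genes were picked for near absence from control liver, so a member with a level there can exceed them without a rise. This comparison therefore cannot separate RNA of the liver from RNA of the tumor, and the source was not tested.

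**Figure D4:**
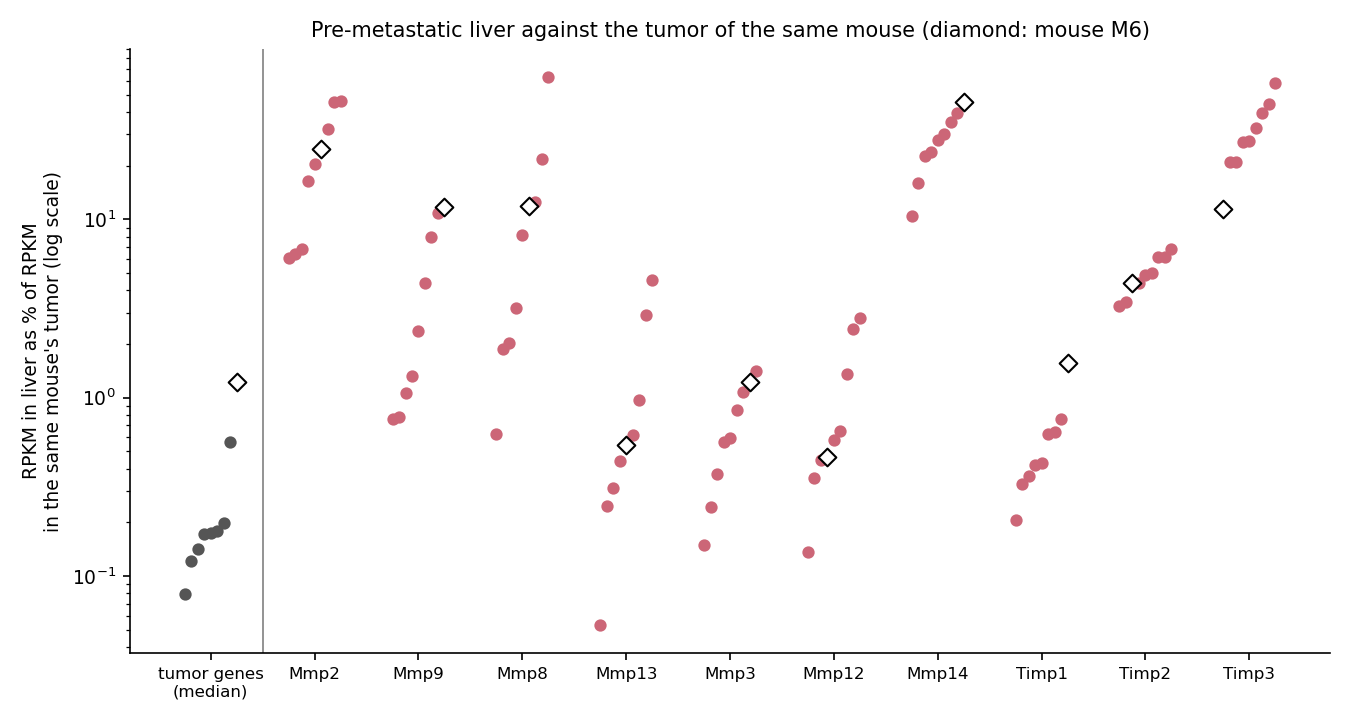
RPKM in the pre-metastatic liver as a percentage of RPKM in the tumor of the same mouse (log axis), for the median of the 15 tumor genes and for each member, with 1 point per mouse and a diamond for M6. *Mmp2*, *Mmp14*, *Timp2*, and *Timp3* lie at 3.26% or more in each mouse, whereas *Timp1*, *Mmp3*, *Mmp12*, *Mmp13*, *Mmp9*, and *Mmp8* come down in at least 1 mouse to the range of the tumor genes (0.0788% to 1.23%).

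Tumors were then compared with the livers of the same mice. In RPKM, each of the 10 members was higher in the tumor than in the liver in 9 of 9 mice. All 10 passed the test against pre-metastatic liver, where 83.3% of 19749 genes were called, 43.8% higher and 39.5% lower. In 9 members the groups did not overlap, as in 52.9% of all genes in the same direction. The members' median log2 fold change was 3.51, against 0.13 over all genes tested. Scaling matters between these tissues: TMM normalization gives differences that are smaller than those on library totals, on which RPKM rests, by 1.18 at the median gene for tumor against pre-metastatic liver and by 1.08 against control liver (log2). The log2 fold changes below use TMM, and RPKM levels do not.

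*Timp1* was the most abundant member in tumors. It ranged from 189 RPKM (M2) over 318 to 666 RPKM (M8), with a log2 fold change of 6.20 ± 0.43 against pre-metastatic liver (adjusted p = 3.93e-11) and 9.69 ± 0.42 against control liver (adjusted p = 3.58e-12). M8 stood above the next tumor, M7, at 419 RPKM. *Timp2* was also higher in tumors, from 103 RPKM (M4) over 137 to 180 RPKM (M6), with a log2 fold change of 3.18 ± 0.14 against pre-metastatic liver (adjusted p = 5.66e-14).

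Against pre-metastatic liver, *Mmp3*, *Mmp12*, and *Mmp13* of chromosome 9 differed by about as much as *Timp1*. Against control liver their log2 fold changes were 7.91, 7.62, and 7.34, below the 9.69 of *Timp1*. *Mmp3* ranged from 25.2 RPKM (M4) over 66.5 to 119 RPKM (M6), with a log2 fold change of 5.97 ± 0.48 against pre-metastatic liver (adjusted p = 4.92e-10). *Mmp12* ranged from 1.89 RPKM (M4) over 15.3 to 58.6 RPKM (M6), with 6.14 ± 0.64 (adjusted p = 2.53e-08). *Mmp13* ranged from 2.22 RPKM (M4) over 12.1 to 35.7 RPKM (M8), with 5.74 ± 0.61 (adjusted p = 3.43e-08). Tumor M4 was lowest in all of these.

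*Mmp8*, their neighbor, differed less, at 0.233 RPKM (M4) to 5.78 RPKM (M8) with a median of 2.92 RPKM. Its log2 fold change against pre-metastatic liver was 2.44 ± 0.61 (adjusted p = 0.00112), and tumor M4 lay below the livers of M1 and M6. In M4 the neutrophil marker sum was 9.63 RPKM, the lowest of the tumors, which ranged up to 251 RPKM (M1). *Mmp9* ranged from 3.48 RPKM (M4) over 9.18 to 26.6 RPKM (M12) and *Mmp2* from 2.64 RPKM (M1) over 6.17 to 13.9 RPKM (M12). Their log2 fold changes against pre-metastatic liver were 3.83 ± 0.52 (adjusted p = 9.54e-07) and 1.54 ± 0.31 (adjusted p = 0.000155).

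*Mmp14* and *Timp3* differed least between tissues. *Mmp14* held 65.8 to 99.1 RPKM in tumors and *Timp3* 5.87 to 15.2 RPKM. Against pre-metastatic liver their log2 fold changes were 0.65 ± 0.22 (adjusted p = 0.0101) and 0.62 ± 0.20 (adjusted p = 0.00854), but with early-phase mice alone *Mmp14* was at 0.31 (adjusted p = 0.226). Against control liver 8 of 10 members were called, where 82.3% of 19320 genes were called, 44.2% higher and 38.1% lower, and these genes were the exceptions at 0.28 ± 0.14 (adjusted p = 0.0683) and 0.15 ± 0.21 (adjusted p = 0.524). On library totals both were called, at 1.37 (adjusted p = 8.43e-08) and 1.24 (adjusted p = 0.000117), and in RPKM each tumor was above each control liver for all 10 members, as for 56.4% of genes.

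Marker genes of the tumors' other cells are given beside these values, and their part in the result was not tested. Of 8 stellate cell and fibroblast markers 6 were higher and 2 lower than in pre-metastatic liver, with sums of 242 to 542 RPKM in tumors, and the lower ones were the liver stellate genes *Reln* (-10.3) and *Lrat* (-8.68). Of 6 macrophage markers 2 were higher and 3 lower, with a sum of 103 to 224 RPKM in tumors, and the lowest against liver was the Kupffer cell gene *Clec4f* (-11.7). Of 8 neutrophil markers tested 1 was higher and 3 lower, the granule genes *Camp* (-5.77), *Ngp* (-5.75), and *Ltf* (-4.37). The granule precursor list had 3 lower of 4, and its sum in tumors was 1.03 to 35.0 RPKM. Of 5 endothelial markers 1 was higher and 3 lower, with a sum of 21.9 to 44.6 RPKM, and the 6 hepatocyte markers were lower.

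The make-up of the set also differed by tissue. *Mmp14* took a mean of 75.6% of the summed RPKM in control livers, 61.1% in pre-metastatic ones, and 12.3% in tumors. *Timp1* took 0.502%, 5.24%, and 49.2%. The 3 inhibitors held 15.0% to 27.2% of the sum in control livers (median 21.7%), 22.6% to 50.2% in pre-metastatic livers (median 30.8%), and 63.1% to 77.5% in tumors (median 70.7%). The ratio of the summed RPKM of the 7 Mmp members to that of the 3 Timp members accordingly had medians of 3.61, 2.24, and 0.414. Family genes outside the set do not enter it, so it is not a ratio for the whole family. One such gene, *Mmp19*, had means of 28.1, 25.3, and 21.2 RPKM in control liver, pre-metastatic liver, and tumor. The order in tumors was *Timp1*, *Timp2*, *Mmp14*, *Mmp3*, with *Mmp14* above *Mmp3* in 6 of 9 tumors, and *Mmp9* and *Timp3* changed places between tumors (*Mmp9* higher in 4 of 9).

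**Figure D5:**
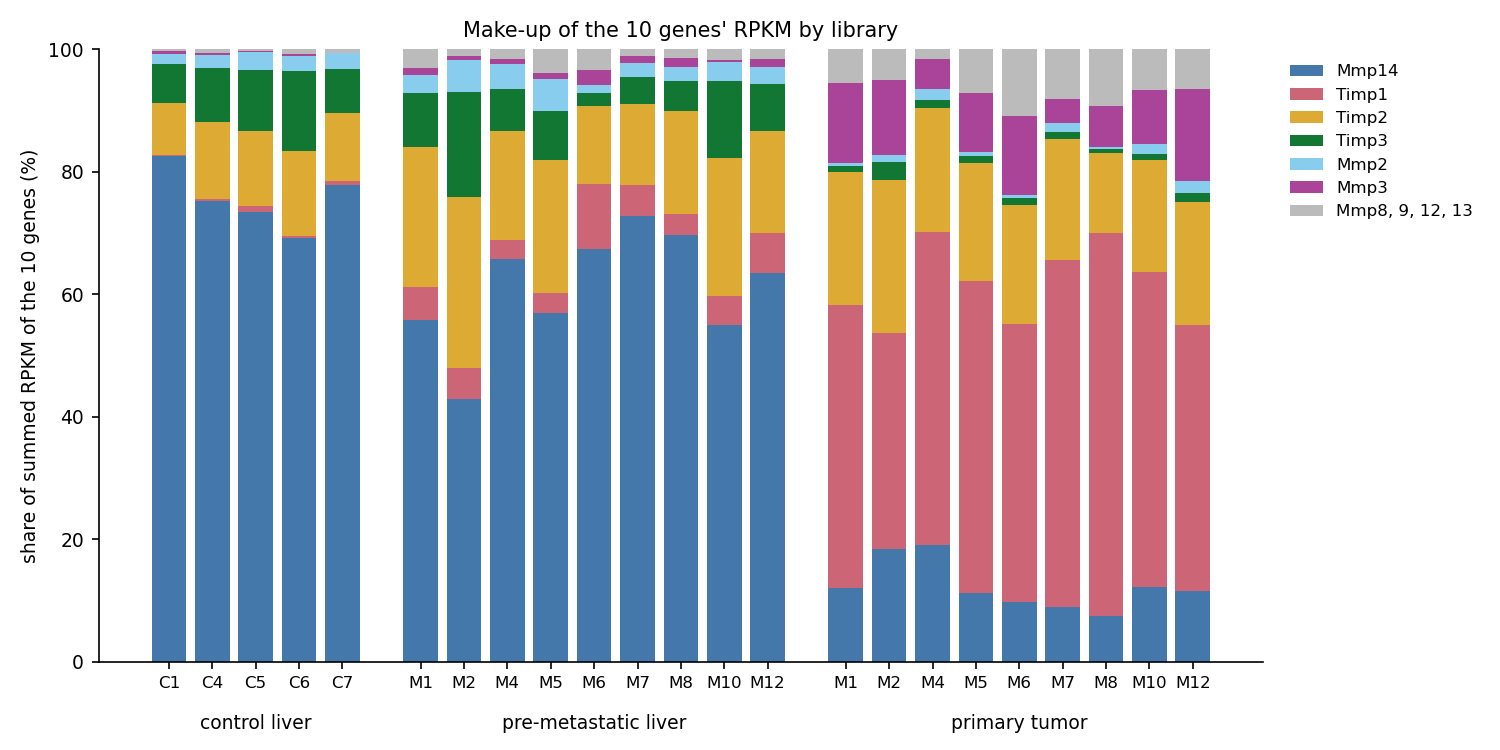
Share of each gene in the summed RPKM of the 10 genes (%, stacked bars to 100) in each of the 23 libraries, grouped by tissue. *Mmp14* takes 69.2% to 82.6% in control livers and 7.49% to 19.1% in tumors, where *Timp1* takes 35.1% to 62.5%.

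Genes of the same pathway were read from lists that do not include the members. Of 17 other family genes, 9 were tested between the livers and 3 rose: *Mmp27* (1.60), *Mmp23* (0.76), and *Mmp15* (0.72), a membrane-anchored enzyme. The list's median log2 fold change was -0.08, against 0.01 for all genes tested. *Mmp19* was at 23.6 to 33.0 RPKM in control and 20.9 to 29.7 RPKM in pre-metastatic livers (-0.08, not called). In tumors it held 14.4 to 35.9 RPKM and was called lower than in pre-metastatic liver (-1.44). Against pre-metastatic liver, 4 of 11 were higher and 5 lower in tumors. *Mmp10*, a second stromelysin, was at 0.612 to 15.8 RPKM in tumors, at no more than 7 counts in pre-metastatic livers, and at 0 in control livers, and *Mmp11* was at 7.10 to 10.2 RPKM in tumors (4.68). *Mmp7*, matrilysin, was listed at 0 counts in each tumor and at 0.181 to 3.09 RPKM in pre-metastatic livers, and *Mmp15* was lower in tumors (-3.93).

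Of 12 activators and partners, 4 rose and 1 fell between the livers (list median 0.33). *Lcn2*, whose product binds Mmp9, rose from 19.5 to 427 RPKM in control to 314 to 1709 RPKM in pre-metastatic livers (2.32, adjusted p = 0.00846). *Cd44*, a cell surface docking protein of Mmp9, rose by 1.37, and *Plaur* and *Plau*, the urokinase receptor and urokinase, by 1.20 and 1.13. *Furin*, the convertase that activates Mmp14, fell by 0.47 on the log2 scale (adjusted p = 0.0398). In tumors 8 were higher and 4 lower than in pre-metastatic liver. *Plaur* (5.21) and *Plau* (4.63) were among those higher, and *Plg*, the plasminogen of hepatocytes (-11.2), and *Lcn2* (-8.01) among those lower.

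Of 12 ADAM and ADAMTS proteinases, the related shedding and matrix enzymes, 9 rose between the livers and none fell (list median 0.97). The largest differences were those of *Adam8* (1.84), *Adam12* (1.68), *Adamts9* (1.41), and *Adam19* (1.27). In tumors 10 were higher than in pre-metastatic liver and 1 lower, with *Adam8* at 15.9 to 50.3 RPKM (5.81).

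Of 12 inducers, the cytokines and AP-1 subunits known to induce Mmp genes, 10 were tested between the livers and 4 rose (list median 0.67). *Junb* went from 8.78 to 13.3 RPKM in control to 18.2 to 45.2 RPKM in pre-metastatic livers (1.54, adjusted p = 9.68e-05), followed by *Il1b* (1.24), *Fosl2* (0.85), and *Tgfb1* (0.72). In tumors 11 of 12 were higher and 1 was lower. *Fosl1*, the AP-1 subunit Fra-1, held 65.5 to 120 RPKM in tumors and 0.0263 to 1.42 RPKM in pre-metastatic livers (7.25), and *Fosb* (5.15), *Osm* (4.86), and *Il6* (3.12) followed.

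Of 10 matrix substrates, 8 rose between the livers and none fell (list median 0.93). *Col3a1* went from 1.47 to 2.81 RPKM in control to 6.36 to 32.8 RPKM in pre-metastatic livers (3.01, adjusted p = 5.15e-05). *Col1a1* (2.71), *Col1a2* (2.21), and *Fn1*, the fibronectin gene (1.09), followed. In tumors 8 were higher than in pre-metastatic liver and 1 lower, led by *Col1a2* (4.04) and *Col5a1* (3.49).

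Across these lists the median log2 fold change of tumor against pre-metastatic liver was -0.28 for the other family genes, 1.16 for activators and partners, 1.39 for ADAM and ADAMTS genes, 2.17 for inducers, and 2.29 for matrix substrates, against 0.13 over all genes tested. Against control liver, 5 of the other family genes were higher and 4 lower in tumors, 7 and 4 of the activators, 10 and 0 of the ADAM and ADAMTS genes, 11 and 1 of the inducers, and 8 and 0 of the substrates.

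Members also varied among the 9 pre-metastatic livers, and the genes most like them were named by Spearman's rho over 16986 genes. For *Mmp8* the first was *S100a9*, a neutrophil calcium-binding protein, with rho = 0.967 (exact p = 0.000165, adjusted p = 0.467) and Pearson's r = 0.792 on log2(RPKM + 1) (exact p = 0.00483). Without M1 and M6 r was 0.976. *H19* and *Rad18* and the neutrophil genes *S100a8* (rho = 0.933) and *Retnlg* (rho = 0.917) followed. For *Mmp9* they were *Npcd* (rho = 0.983), *Krt80*, *Pkm*, *Gm38811*, and *Mrc2*, each with an adjusted p of 0.823. *Npcd* (0.0489 to 0.463 RPKM) and *Gm38811* (0 to 0.169 RPKM) were low.

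For *Timp1* the first was *Aebp1*, which encodes a collagen-binding matrix protein, with rho = 1 (exact p = 5.51e-06, adjusted p = 0.0936) and r = 0.843 (exact p = 2.76e-06), and r without M1 and M6 was 0.992. *Lgi4*, *Mllt4*, *Pglyrp3*, and *Steap2* followed with rho of 0.983 to 0.95. For *Mmp14* they were *Gm12451* (rho = 0.979, exact p = 7.72e-05, adjusted p = 0.0496), *Faap20*, *Gm8172*, *Fgg*, and *Slc7a5*. *Gm12451* was itself low, at 0 to 0.134 RPKM in these livers. *Mmp14* had 17 genes with an adjusted p under 0.05, of which 1 was positive, and the other members had 0, with 2.79% to 14.6% of genes at an unadjusted p under 0.05. Within the clock phases the rho of the named genes was 0.83 to 1. In tumors, compared after the data had been seen, *Mmp8* had 2 genes with an adjusted p under 0.05 over 17777 genes and the other members had 0.

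Among the members themselves, *Mmp3* and *Timp1* were closest in pre-metastatic liver, with rho = 0.883 (exact p = 0.00308, adjusted over all genes 0.205 or more). *Mmp8* and *Mmp9* had rho = 0.783 and *Mmp14* and *Timp3* rho = -0.783 (both exact p = 0.0172). In tumors the closest pairs were *Mmp8* with *Mmp13* and with *Mmp12*, at rho = 0.933 each (exact p = 0.00075, adjusted p of 0.255 or more), and *Mmp12* with *Mmp13*, at rho = 0.85. These genes lie in the run on chromosome 9, but *Mmp3*, of the same run, had rho of only 0.267 to 0.517 with them. *Timp1*, on chromosome X, had rho of 0.783 to 0.833 with them. No pair of members had an adjusted p under 0.05 in either tissue.

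The level in the tumor and in the liver of the same mouse was compared for each member over the 9 mice. *Mmp3* had the highest rho, 0.717 (exact p = 0.0369, adjusted over 14497 genes 0.823), and 0.89 when ranks were centred within each phase (exact p = 0.00556). Its Pearson's r was 0.53 (exact p = 0.148), and 0.777 without the 2 mice farthest from the median. With a mouse left out rho was 0.595 to 0.786, and the exact p was above 0.05 without M1, M5, M6, M8, or M12. *Mmp12* (0.583), *Mmp13* (0.5), *Timp1* (0.417), and *Timp2* (0.217) also had positive rho, and *Mmp9* (-0.517) and *Mmp2* (-0.467) the most negative. None of the 10 had an adjusted p under 0.05, nor did any of the 14497 genes, of which 5.19% had an unadjusted p under 0.05.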

How the data were processed

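Poly(A) libraries of 5 control livers, 9 pre-metastatic livers, and 9 primary tumors were compared. The authors deposited raw counts per gene and RPKM for 48897 table lines. The submitters' processing notes name HISAT2, HTSeq 0.6.0, and mm10, and whether counting used strand is not given in the sources used here. RPKM recomputed from counts, lengths, and totals changed by at most 1.75e-06 of itself, and 2 symbols on more than 1 line were summed. Counting error limits genes of few counts and does not cover variation between mice.

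Counts were tested with edgeR 4.0.16 in R 4.3.3 (TMM, quasi-likelihood, two-sided, genes reaching 10 counts in 5 or more of the libraries compared, Benjamini-Hochberg over all genes tested). DESeq2 1.42.0, its size factors, an exact Wilcoxon rank-sum test (two-sided) of RPKM, no filter, clock phase, a mouse block, and leaving out each library were alternatives, and library totals without TMM were added after the data were seen. Rank correlations used exact p over all pairings (Python 3.11.15, numpy 2.4.6, scipy 1.17.1, pandas 2.3.3, matplotlib 3.10.9). A tumor and a liver share a mouse by the labels' mouse ID, and their deviations from the group means correlated at a mean of 0.0700 over 19749 genes (other mice -0.00900).

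The members, the gene lists, and the clock phases were chosen with earlier results of these data known. The genes named are the 10 members, at most 4 called genes of each list with the largest log2 fold change in each of the comparisons between livers and of tumor with pre-metastatic liver, and the 5 genes with the highest rho to *Mmp8*, *Mmp9*, *Mmp14*, and *Timp1*. *Epcam*, *Cdx2*, and *Ly6g* were named in addition as defining markers, and *Mmp19* for its level. Of the steps, only the edgeR test between the livers and the rank correlation were tried on simulated data.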

Additional observations from a re-analysis of the deposited data

Results flagged for a closer look

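Of 30 groups of values (10 genes in 3 groups of libraries), 5 held a library whose gap to its nearest neighbor was large for the range of its group. Chance alone gives about 1 in 20 where values are normally distributed. The rule was applied to RPKM without a logarithm, so this rate may not hold here and the 5 cannot be read as an excess. In pre-metastatic liver, M6 stood above the others in *Mmp9* (1.07 RPKM, next 0.528), *Mmp3* (1.46 RPKM, next 0.606), and *Timp1* (6.58 RPKM, next 2.21). The same liver held the highest median of the 15 tumor genes, 1.23% of its own tumor, and the part of this in the values was not tested. Liver M5 stood above the others in *Mmp13* (0.626 RPKM, next 0.158). Among tumors, M8 stood above the others in *Timp1* (666 RPKM, next 419).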

How the results depend on the processing

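Between the livers, 5 members were called, 3 by the exact Wilcoxon rank-sum test (*Timp1*, *Mmp9*, and *Mmp8*), and 2 to 6 with 1 library left out. Fewer than 4 were called without C1 (3), C5 (2), C6 (3), or C7 (3). Under the other 6 settings the count was 4 to 6. Of all genes, 5270 (31%) were called in the main fit and 4653 by the Wilcoxon test. With 1 library left out 4271 to 5281 genes were called, and under the other settings 4137 to 5986. *Timp1* and *Mmp9* passed under each of these settings and with each library left out. With 1 library left out their log2 fold changes were 2.96 to 3.67 and 2.22 to 2.92, and in the early phase both were above these ranges. By contrast, *Mmp12* was called by DESeq2 and with clock phase as a term (1.50, adjusted p = 0.0404). *Timp3* was called in the early phase, with clock phase as a term, and without M2 (-0.59, adjusted p = 0.0343). In tumors against pre-metastatic liver, 9 or 10 members were called under each setting, the lower count in the early phase. The main fit called 83.3% of all genes there. With the mouse as a block (a paired fit), 10 members and 16329 genes were called, against 16457 without it, and the block changed no call of a member. Against control liver, 8 to 10 members were called, where the main fit called 82.3% of all genes. *Timp3*, which was not called in the main fit, changed sign in the early phase (-0.12, adjusted p = 0.516). Over the same mice, the rho of *Mmp14* changed sign within the clock phases (from -0.0667 to 0.00134) and with a mouse left out (-0.262 to 0.333), as did that of *Timp2* (-0.0476 to 0.405). The rho of the 20 gene pairs named for likeness kept sign and side of 0.05 with any mouse left out. Depth limits *Mmp8*, *Mmp9*, *Mmp12*, and *Mmp13* in control liver, at 1 to 17 counts. The causes of these changes were not tested.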
